A study of Mus musculus with 4 samples.

Results

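The genes described here encode the nuclear part of the mitochondrial respiratory chain and the ATP synthase: NADH dehydrogenase (complex I), succinate dehydrogenase (complex II), the cytochrome bc1 complex (complex III), cytochrome c, cytochrome c oxidase (complex IV) and the ATP synthase (complex V). They were chosen by symbol in the unscaled table, as those starting with Nduf, Uqcr, Cox4 to Cox8 or Atp5, with Sdha, Sdhb, Sdhc, Sdhd, Cyc1 and Cycs. The rule found 94 genes of the 23366 in the table and used no measured value. Of these, 84 are subunits of the 5 complexes or cytochrome c itself. The others are assembly factors or related proteins that share a symbol prefix, and they are described by that role. Levels are FPKM, sequenced fragments divided by the length of the transcript and the size of the library, and a gene passed the filter on low values when its average across the libraries reached 1 FPKM. This held for 88 of the 94 genes and for 11640 of the 23366 (small RNA genes left out).

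Complexes I and II take electrons from NADH and succinate and pass them through ubiquinone to complex III, and cytochrome c carries them on to complex IV, which reduces oxygen to water. Complexes I, III and IV pump protons out of the matrix, and the ATP synthase lets them flow back to make ATP. Complex II is encoded by nuclear genes alone, whereas the other 4 complexes combine nuclear subunits with a few encoded by mitochondrial DNA, which are not analysed here. Fibroblasts in culture express the ubiquitous form of each subunit, while several complex IV subunits also have muscle or testis forms. Myc and MycN are transcription factors that bind E-box DNA with the partner Max, and genes of mitochondrial function are among those they are known to affect.

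RNA-seq was made from 4 cultures of immortalized mouse embryonic fibroblasts (MEF cells), grown in DMEM with 10% FBS. The control culture held the empty vector; the other cultures contained Myc, MycN or Minimal Myc, and each of the 4 gave 1 library. All 4 received adenoviral Cre recombinase and were harvested after a recovery whose unit the labels leave out (48). The series design describes cells with Myc deleted and compares them with cells containing one of the 3 Myc proteins, to ask how overall expression differs. The labels name neither the number of clones behind a culture nor the gene from which Minimal Myc was made. With 1 library per group there is no replicate check and no test, so every difference below compares 2 libraries.

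Library depth, estimated from the steps between low FPKM values, was 67700000 fragments with vector, 68300000 with Myc, 93400000 with MycN and 88800000 with Minimal Myc. Of the 88 genes, 77 had an estimate of at least 1000 fragments in every library. Myc itself was at 22.2 FPKM with vector, 141 with Myc, 4.36 with MycN and 32.6 with Minimal Myc, and Mycn at 0.390, 0.275, 178 and 95.9 FPKM in that order. The library labelled vector, called vector here, was thus not the lowest for the gene that the design describes as deleted, and a gene-level value does not tell which exons the fragments came from. Symbols of small RNA genes held 41.3% of the summed FPKM with vector, against 12.3% with Myc, 17.0% with MycN and 10.1% with Minimal Myc. Since FPKM divide by length, this is not their share of fragments. FPKM of all other genes are relative to a total that includes them, and their part in the differences from vector was not tested. Of 13 fibroblast markers 12 reached 1 FPKM in some library, all but Lum, with summed levels of 2979 to 4008 FPKM. Epithelial and endothelial markers did not reach 1 FPKM in any library (0 of 6 and 0 of 4, summed levels 0.140 to 0.663 and 0.146 to 1.18 FPKM). Immune markers summed to 3.01 to 8.18 FPKM with Cd68 and Csf1r above 1 and Ptprc, the defining leukocyte marker, at most at 0.0215 FPKM. Brown fat markers summed to 0.210 to 1.71 FPKM, with Pparg alone reaching 1.

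Promoters were examined first, because the genes of this system are textbook targets of nuclear respiratory factor 1 (NRF1) and Myc proteins bind E-boxes. The 250 bases before the start of transcription were read from the RefSeq promoter table (GRCm38.p6), which held 83 promoters for 77 of the 94 genes. The E-box CACGTG stood in 9 of these 83 promoters (10.8%) and in 6.02% of the 32851 promoters of the table. These 9 promoters belong to 7 of the 77 genes. The promoters of the table were not limited to expressed genes, here or for the other motifs. The NRF1 site GCATGCGC, searched on both strands, stood in 10 of 83 (12.0%) against 2.26% of all promoters. An ETS site, CCGGAAGT, was found in 3 of 83 (3.61% against 2.88%) and a YY1 site, AAGATGGC, in 2 of 83 (2.41% against 1.56%), also on both strands. None of these motifs contains another. A match describes letters in this window and does not show binding.

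The next sequences were chosen to show these matches in genes with different patterns below: the electron carrier Cycs and the iron-sulfur subunit Sdhb with the NRF1 site, and Atp5g1, Ndufv1 and Atp5sl with an E-box. Each is printed in the direction of the gene and ends at the base before its start, with the matched motif in capitals. In GRCm38.p6 they lie at chr6:50566570-50566819 on the minus strand, chr4:140961021-140961270 on the plus strand, chr11:96075632-96075881 on the minus strand, chr19:4012756-4013005 on the minus strand and chr7:25619164-25619413 on the plus strand. The last is 1 of 2 promoters listed for its gene. The motif began 60 bases before the start in Cycs, 54 in Sdhb, 44 in Atp5g1, 169 in Ndufv1 and 22 in Atp5sl.
Cycs: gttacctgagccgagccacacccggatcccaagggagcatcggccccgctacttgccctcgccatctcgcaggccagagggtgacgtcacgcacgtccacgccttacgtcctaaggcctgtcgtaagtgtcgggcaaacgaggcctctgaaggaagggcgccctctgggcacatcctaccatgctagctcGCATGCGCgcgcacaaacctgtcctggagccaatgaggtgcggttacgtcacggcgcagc
Sdhb: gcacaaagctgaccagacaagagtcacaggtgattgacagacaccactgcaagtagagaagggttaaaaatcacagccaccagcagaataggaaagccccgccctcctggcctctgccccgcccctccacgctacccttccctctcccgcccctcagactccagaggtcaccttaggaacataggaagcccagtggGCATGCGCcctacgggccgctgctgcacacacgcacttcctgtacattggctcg
Atp5g1: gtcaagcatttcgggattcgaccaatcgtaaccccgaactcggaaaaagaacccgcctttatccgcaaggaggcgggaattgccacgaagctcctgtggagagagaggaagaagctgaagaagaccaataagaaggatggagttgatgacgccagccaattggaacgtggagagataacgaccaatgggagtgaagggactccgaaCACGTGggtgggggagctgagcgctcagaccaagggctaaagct
Ndufv1: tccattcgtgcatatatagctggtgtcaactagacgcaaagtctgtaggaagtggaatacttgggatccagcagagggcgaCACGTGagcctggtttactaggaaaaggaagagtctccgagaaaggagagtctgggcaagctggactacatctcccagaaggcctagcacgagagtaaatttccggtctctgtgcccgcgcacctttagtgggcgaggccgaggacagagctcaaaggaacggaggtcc
Atp5sl: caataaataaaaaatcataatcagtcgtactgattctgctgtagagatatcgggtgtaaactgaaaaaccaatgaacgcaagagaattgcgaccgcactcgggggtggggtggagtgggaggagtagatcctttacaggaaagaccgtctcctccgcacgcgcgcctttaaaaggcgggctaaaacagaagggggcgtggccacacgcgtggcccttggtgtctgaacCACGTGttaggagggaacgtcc

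Genes with and without a motif were set side by side by their median difference from vector in log2(FPKM + 1), with no test. The 7 genes with an E-box (Atp5f1, Atp5g1, Atp5g3, Atp5l, Atp5sl, Ndufa7 and Ndufv1) had medians of 0.62 with Myc, 0.50 with MycN and 0.46 with Minimal Myc. The 67 genes past the filter whose promoters lacked it had 0.56, 0.42 and 0.67. The 10 genes with the NRF1 site (Atp5g2, Atp5k, Atp5l, Cox6a1, Cycs, Ndufa11, Ndufa6, Ndufa8, Ndufaf4 and Sdhb) had 0.45, 0.28 and 0.65, and the 64 without it 0.62, 0.43 and 0.66. At least 2-fold higher in Myc than in vector were 2 of the 7 genes with an E-box and 9 of the 67 without it. For the NRF1 site it was 0 of 10 and 11 of 64, and 11.2% of all genes passed. Atp5sl and Ndufv1, both printed above, are the 2 with an E-box, while Cycs, Sdhb and Atp5g1 were 1.42, 1.43 and 1.55 times vector. The printed genes were chosen for different patterns and do not stand for their motif groups.

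These genes were among the most abundant transcripts of the cells. Their median level, as the mean over libraries, was 121 FPKM against 11.7 for all genes past the filter. The median gene stood at the 94.9th percentile of level, 70 of 88 were in the top 10% and 43 in the top 5%. Together they made up 3.67% of the FPKM summed over the 11640 genes with vector, 3.35% with Myc, 3.52% with MycN and 3.53% with Minimal Myc. Complex V subunits were the most abundant by the median in vector (273 FPKM), followed by complex IV (200), III (138), II (57.0) and I (55.0). In every library the medians of complexes IV and V lay above those of I, II and III. Complex I includes the assembly factors, whose median was 5.08 FPKM in vector against 86.6 for its accessory subunits and 48.3 for its core subunits.

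**Figure D1:**
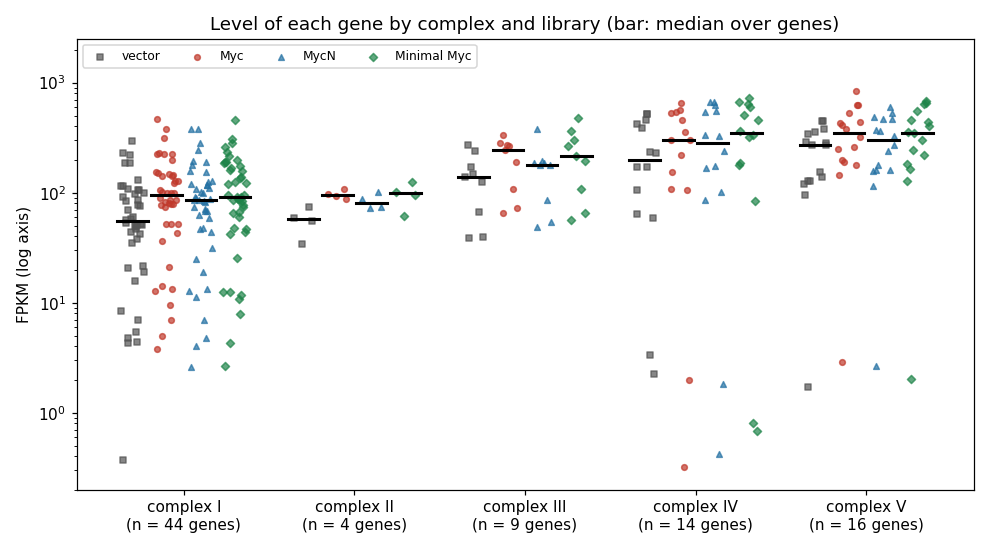
FPKM (log axis) of every gene past the filter by complex and library. Each point is 1 gene, bars are medians over genes, and each group is 1 library; in vector the medians run from 55.0 FPKM in complex I to 273 in complex V.

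In FPKM, most respiratory chain and ATP synthase genes were higher in each library with a Myc protein than in vector. The median difference in log2(FPKM + 1) was 0.59 with Myc, 0.42 with MycN and 0.65 with Minimal Myc. Over all 11640 genes it was 0.47, 0.42 and 0.47, so relative to the median gene these genes stood at 0.12, 0.00 and 0.18. In bulk RNA, fewer cells of a type and less RNA per cell cannot be told apart. Genes above vector numbered 83, 80 and 84 of 88, against 83.5%, 81.8% and 83.0% of all genes. A background of like level was added after earlier results were known: the 1546 genes that averaged 50 FPKM or more had median differences of 0.67, 0.47 and 0.69. Against these abundant genes the medians for the respiratory chain were lower in all 3 comparisons, which share the vector library.

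At least 2-fold higher than vector were 13 of the 88 genes in Myc (14.8%), where 11.2% of all genes were. In MycN it was 5 of 88 (5.68%) against 7.65% of all genes, and in Minimal Myc 12 of 88 (13.6%) against 13.6%. Among the abundant genes the shares were 21.9%, 7.70% and 19.6%. These counts therefore lay near the background or below that of abundant genes. The only gene at least 2-fold lower was Cox6a2, in each of the 3 comparisons, where 1.56%, 1.86% and 1.68% of all genes were. It passed the filter only through its vector value (3.35 FPKM), which all 3 comparisons share, so these calls are not separate results. A gene admitted in this way is low in the other libraries by selection.

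After subtraction of the median difference of all genes, 2 genes in Myc (Atp5sl and Ndufa10), 1 in MycN (Ndufa10) and 0 in Minimal Myc were at least 2-fold higher, against 1.87%, 1.86% and 3.71% of all genes. By the same measure 1 gene in Myc (Cox6a2), 2 in MycN (Cox6a2 and Ndufs5) and 2 in Minimal Myc (Cox6a2 and Cox7a1) were at least 2-fold lower, against 4.38%, 4.19% and 4.68%. The 88 genes also varied less among themselves than all genes did. The interquartile range of their differences was 0.42 with Myc, 0.36 with MycN and 0.38 with Minimal Myc, against 0.59, 0.56 and 0.62 over all genes and 0.58, 0.55 and 0.48 over the abundant ones.

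Vector was the lowest of the 4 libraries for 77 of 88 genes (87.5%), against 68.1% of all genes and 80.3% of the abundant ones. Vector was the highest for 3 genes, Cox6a2, Cox7a1 and Ndufs5 (5.53% of all genes). Minimal Myc was the highest for 46 (35.8% of all genes, 43.0% of the abundant ones), Myc for 29 (29.6% and 41.2%) and MycN for 10 (29.0% and 13.8%). In the authors' scaled table, where 1 factor per library multiplies all values, vector was the lowest for 85 of 88. There vector stayed the highest for Cox6a2 alone. Cox7a1 (2.27 FPKM in vector, 4.01 in Myc) and Ndufs5 (106 and 161) were higher in Myc.

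**Figure D2:**
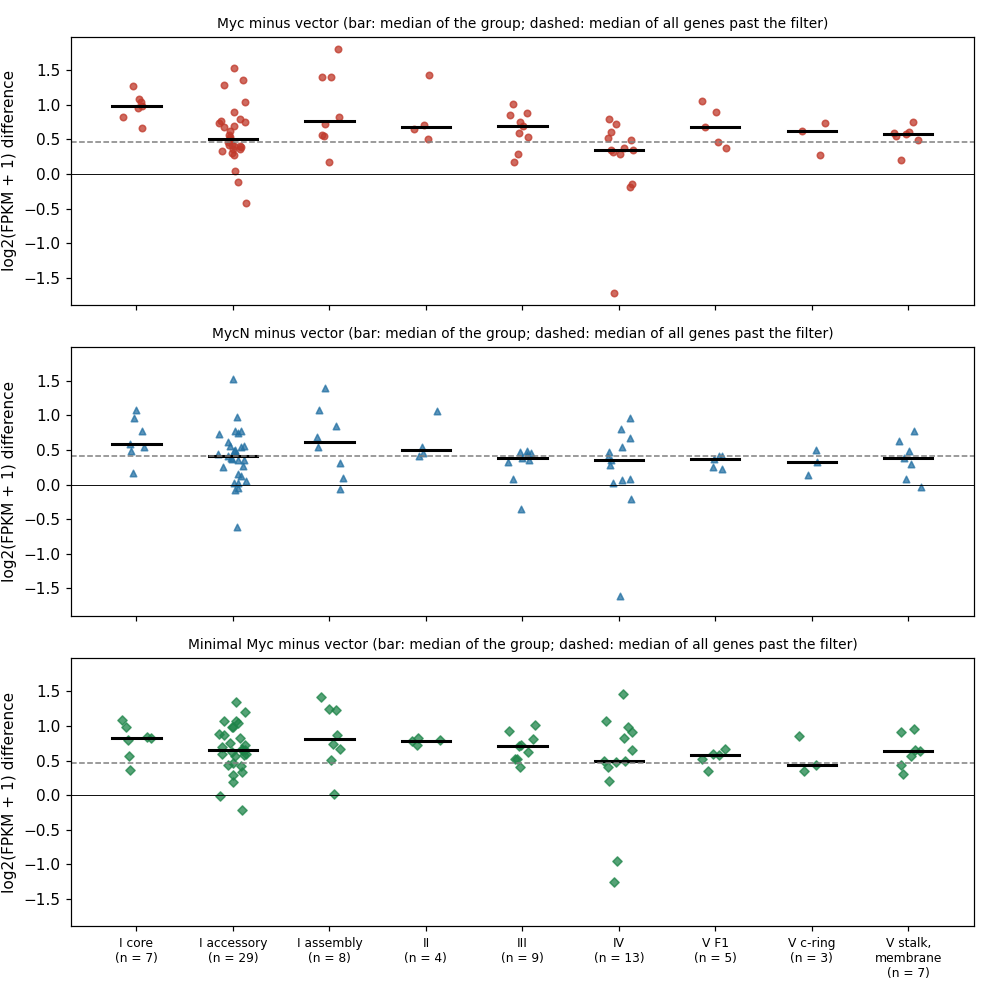
Difference from vector in log2(FPKM + 1), by complex and role, for Myc, MycN and Minimal Myc (1 library each). Points are genes, bars are group medians and the dashed line is the median of all 11640 genes; complex I core subunits had the highest group median in Myc (0.98) and complex IV subunits the lowest (0.35).

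Complex I is the largest of the 5, and its 44 genes had median differences of 0.67, 0.48 and 0.72 for Myc, MycN and Minimal Myc. At least 2-fold above vector were 10 of the 44 with Myc, 4 with MycN and 9 with Minimal Myc, assembly factors making up 3, 2 and 3 of these. The same held for 11.2%, 7.65% and 13.6% of all genes and for 21.9%, 7.70% and 19.6% of the abundant ones. Complex I makes up 44 of the 88 genes, and its share of the 2-fold genes was not tested. The 7 nuclear core subunits, which form the electron path with its flavin and iron-sulfur clusters, had medians of 0.98, 0.59 and 0.83. Vector was the lowest library for all 7, against 68.1% of all genes and 80.3% of the abundant ones. The 29 accessory subunits, which surround that core, had 0.50, 0.42 and 0.65. The 8 assembly factors had 0.77, 0.62 and 0.80.

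Among the core subunits, Ndufv1, the NADH-binding flavoprotein, was 46.6 FPKM with vector, 100 with Myc, 68.2 with MycN and 60.2 with Minimal Myc. Ndufv2, an iron-sulfur subunit beside it, was 38.0 FPKM with vector, 79.2 with Myc, 81.4 with MycN and 66.4 with Minimal Myc. Ndufs1, the largest subunit of the electron input module, was 21.6 FPKM with vector, 42.6 with Myc, 43.5 with MycN and 43.7 with Minimal Myc. The 3 Myc protein libraries thus lay close together for Ndufs1, whereas for Ndufv1 the Myc library was well above the other 3. In the module that passes electrons on to ubiquinone, Ndufs3 was 48.3 FPKM with vector, 86.5 with Myc, 83.5 with MycN and 87.5 with Minimal Myc. Ndufs7 was 53.4 FPKM with vector, 106 with Myc, 74.7 with MycN and 96.0 with Minimal Myc. Ndufs8, a carrier of 2 iron-sulfur clusters, was 52.0 FPKM with vector, 127 with Myc, 58.6 with MycN and 77.5 with Minimal Myc. Its MycN value was 1.13 times vector and its Myc value 2.44 times, and it was the only gene at least 2-fold lower in MycN than in Myc.

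**Figure D3:**
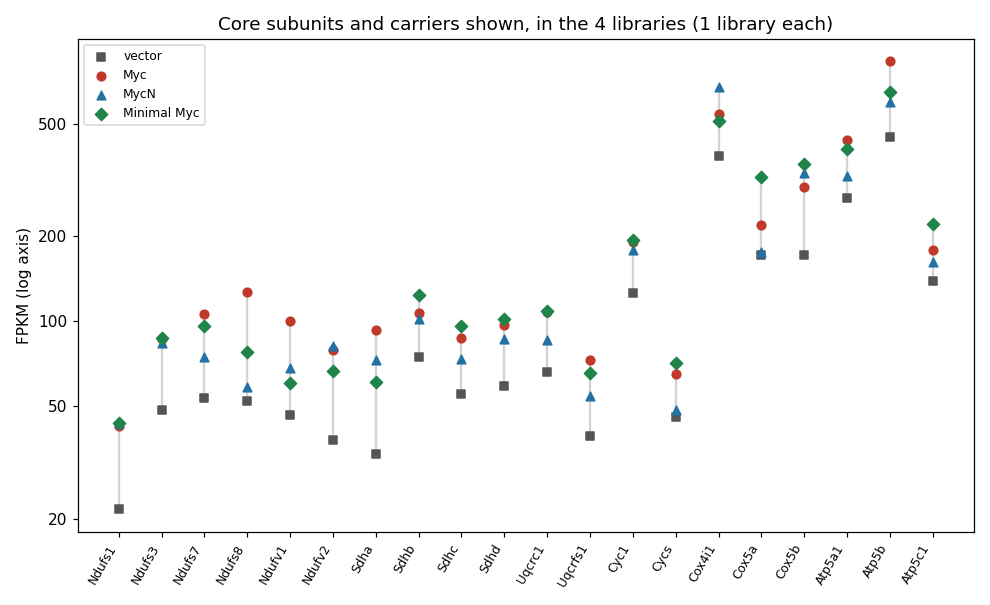
FPKM (log axis) of 20 nuclear core subunits and carriers in the 4 libraries, with 1 library per group and a grey line from the lowest to the highest value. Vector is the lowest point for all 20 genes, as it was for 68.1% of all genes and 80.3% of the abundant ones. The order of the other 3 libraries differs from gene to gene.

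The accessory subunits held the widest range of complex I. Ndufa10, a matrix-side subunit, was 42.0 FPKM with vector, 123 with Myc, 124 with MycN and 84.3 with Minimal Myc, which is 2.93, 2.94 and 2.01 times vector. Ndufs5 had the lowest mean difference of complex I and was 106 FPKM with vector, 79.1 with Myc, 68.8 with MycN and 91.5 with Minimal Myc. Ndufs5 was thus highest in vector in FPKM, but in the scaled table it was 106, 161, 89.5 and 117, so only MycN remained below vector. Ndufa1, a small membrane-arm subunit, was 84.0 FPKM with vector, 77.2 with Myc, 92.1 with MycN and 215 with Minimal Myc. Its high value was in Minimal Myc alone, 2.56 times vector, and it was named after its values were seen. The other accessory subunits at least 2-fold higher were Ndufa12, Ndufc1 and Ndufs6 in Myc and Ndufa8, Ndufa12, Ndufb4 and Ndufb11 in Minimal Myc.

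The assembly factors build complex I but are not part of the finished enzyme. Atp5sl, which despite its symbol acts in assembly of the complex I membrane arm, had the highest mean difference of all 88 genes. It was 0.373 FPKM with vector (95% interval 0.281 to 0.486), 3.80 with Myc (3.49 to 4.12), 2.62 with MycN (2.41 to 2.86) and 2.68 with Minimal Myc (2.45 to 2.92). The intervals are exact Poisson intervals on the estimated fragments (55 in vector, 520 to 567 in the others) and cover counting error only. Atp5sl was 10.2, 7.04 and 7.19 times vector, and its vector value was separate from the others at this depth. Ndufaf6 was 4.75 FPKM with vector, 14.1 with Myc, 11.2 with MycN and 12.5 with Minimal Myc. Ndufaf2, which binds a late intermediate, was 19.0, 51.6, 31.3 and 46.7 FPKM in that order, and both were named for passing 2-fold. The rise was not uniform: Ndufaf3, named after its values were seen, was 4.29, 4.98, 4.06 and 4.32 FPKM. Of the 8 assembly factors, 8, 7 and 8 lay above vector in Myc, MycN and Minimal Myc.

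Complex II, which also belongs to the tricarboxylic acid cycle, had medians of 0.68, 0.50 and 0.79 over its 4 genes. Vector was the lowest library for all 4, against 68.1% of all genes and 80.3% of the abundant ones. Sdha, the flavoprotein that oxidizes succinate, was 34.0 FPKM with vector, 93.3 with Myc, 72.6 with MycN and 61.1 with Minimal Myc. Sdhb, the iron-sulfur subunit, was 74.7 FPKM with vector, 107 with Myc, 102 with MycN and 124 with Minimal Myc. The membrane anchors Sdhc and Sdhd were 55.0 and 59.1 FPKM with vector, 87.1 and 97.2 with Myc, 73.7 and 86.7 with MycN, and 96.0 and 102 with Minimal Myc. Sdha thus differed from the other 3 subunits in the order of the libraries: it was highest in Myc and they were highest in Minimal Myc. Its ratios to vector were 2.75, 2.14 and 1.80, while those of Sdhb, Sdhc and Sdhd were 1.34 to 1.75.

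Sdha is also the 1 gene of the respiratory chain among the 30 read by NanoString, a count of RNA molecules by hybridization that the authors deposited in the same tables. Its NanoString signal was 968 with vector, 2651 with Myc, 1582 with MycN and 1474 with Minimal Myc. The ratios to vector were 2.74, 1.63 and 1.52 by NanoString, 2.75, 2.14 and 1.80 by FPKM, and 5.61, 2.78 and 2.31 in the scaled table. The NanoString and unscaled FPKM ratios were close in Myc, and the FPKM ratio was the larger in MycN and Minimal Myc. Over the 30 genes the median NanoString ratio was 2.04, 1.28 and 1.23, and 3, 8 and 6 of the 30 (Sdha included) were at or above the ratio of Sdha. The mean NanoString ratio over the 32 rows, Sdha included, equalled the scaling factor of each library (2.04, 1.30 and 1.28).

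Complex III, which passes electrons from ubiquinol to cytochrome c, had medians of 0.70, 0.39 and 0.71 over 9 genes. Relative to all genes these are 0.22, -0.03 and 0.24, with MycN close to the median gene. Uqcrc1, a core subunit, was 66.3 FPKM with vector, 108 with Myc, 85.5 with MycN and 109 with Minimal Myc. Uqcrfs1, the Rieske iron-sulfur protein, was 39.2 FPKM with vector, 73.0 with Myc, 54.3 with MycN and 65.6 with Minimal Myc. Cyc1, cytochrome c1, was 126 FPKM with vector, 191 with Myc, 178 with MycN and 194 with Minimal Myc. In these 3 catalytic or core genes MycN was the lowest of the Myc protein libraries. Uqcrb, a ubiquinone-binding subunit, had the highest mean difference (138, 281, 186 and 263 FPKM in vector, Myc, MycN and Minimal Myc). Uqcrq, a small subunit, had the lowest and was 237 FPKM with vector, 267 with Myc, 185 with MycN and 480 with Minimal Myc. Uqcrq was therefore the 1 gene of complex III below vector in MycN, and in the scaled table it was 240 FPKM there against 237. Cycs, the soluble carrier between complexes III and IV, was 45.6 FPKM with vector, 64.9 with Myc, 48.5 with MycN and 71.2 with Minimal Myc, with MycN at 1.06 times vector.

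Complex IV had the lowest medians of the 5 complexes in Myc and Minimal Myc, 0.36 and 0.50 over 14 genes, and stood at 0.38 in MycN. Relative to all genes these are -0.11, -0.04 and 0.03 (Myc, MycN and Minimal Myc), so complex IV was above vector in FPKM, below the median gene in Myc and close to it in MycN and Minimal Myc. In Myc 0 of the 14 were at least 2-fold higher, in MycN 0 and in Minimal Myc 2 (Cox5b and Cox7b), against 11.2%, 7.65% and 13.6% of all genes, so with 14 genes these counts are too small to set apart from the background. With the 6 genes below the filter counted in, the MycN median was 0.18. The 14 include 2 muscle forms at low level, Cox6a2 and Cox7a1, with differences of -1.26 and -0.95 in Minimal Myc. Cox6a2 passed the filter through vector alone. Both lay below the complex IV median in every comparison with vector. The rank of complex IV without them was not computed, so it is not shown to hold for the ubiquitous forms. The difference between complexes was not tested. Cox4i1, the ubiquitous form of the largest nuclear subunit, was 384 FPKM with vector, 539 with Myc, 672 with MycN and 510 with Minimal Myc. Cox5a was 171 FPKM with vector, 218 with Myc, 175 with MycN and 323 with Minimal Myc. Its partner Cox5b, which had the highest mean difference of complex IV, was 171 FPKM with vector, 298 with Myc, 333 with MycN and 360 with Minimal Myc. The pair had the same level in vector but not in MycN, where Cox5b was 1.95 times vector and Cox5a 1.02 times.

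The ubiquitous small subunits of complex IV were mostly within 2-fold of vector. In the order vector, Myc, MycN and Minimal Myc, Cox6a1 was 422, 527, 540 and 663 FPKM, Cox6b1 was 234, 358, 326 and 331 FPKM, and Cox7a2 was 106, 153, 169 and 187 FPKM. Ndufa4, first assigned to complex I and now placed in complex IV, was 517, 657, 631 and 722 FPKM. Vector was the lowest library for these 4 genes, as for 68.1% of all genes and 80.3% of the abundant ones. Cox8a was 521 FPKM with vector, 458 with Myc, 550 with MycN and 599 with Minimal Myc, and in the scaled table it was lowest in vector. Cox7b was 64.6 FPKM with vector, 107 with Myc, 85.5 with MycN and 179 with Minimal Myc, 2.78 times vector in the last. Cox7a2l, a factor that joins complexes III and IV into supercomplexes, was 58.5 FPKM with vector, 106 with Myc, 102 with MycN and 83.5 with Minimal Myc. Of these, Cox8a alone was below vector in any library.

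The tissue-restricted forms of complex IV subunits were low in all libraries, and 1 of them departed furthest from the rest of the chain. Cox6a2, the form of heart and skeletal muscle, was 3.35 FPKM with vector (95% interval 2.73 to 4.03), 0.321 with Myc (0.168 to 0.601), 0.422 with MycN (0.255 to 0.662) and 0.814 with Minimal Myc (0.572 to 1.14). The estimates rest on 106, 11, 19 and 35 fragments. The vector value lay above the other 3 intervals and was 10.4, 7.94 and 4.11 times the values in Myc, MycN and Minimal Myc, and in the scaled table vector remained the highest (3.35 against 0.654, 0.548 and 1.05). Its mean over the libraries passed 1 FPKM through vector alone. The 7 striated muscle markers summed to 7.58 FPKM with vector, 8.06 with Myc, 11.7 with MycN and 9.63 with Minimal Myc, with Tnnt2 and Des reaching 1 in some library and Ckm listed at 0 in vector. Tnnt2 carried most of each sum (6.91, 6.97, 10.6 and 9.46 FPKM), and Des was 0.632, 1.04, 1 and 0.144 FPKM. The part of muscle transcripts in the Cox6a2 values was not tested.

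Cox7a1, another muscle form, was 2.27 FPKM with vector (1.5 to 3.27), 1.97 with Myc (1.29 to 2.89), 1.83 with MycN (1.26 to 2.57) and 0.687 with Minimal Myc (0.362 to 1.22). Its first 3 intervals overlapped, and only Minimal Myc lay apart, on 12 estimated fragments. The 6 genes below the filter were Cox4i2, Cox6b2, Cox7b2, Cox8b, Cox8c and Ndufa4l2. Cox4i2, a form of lung and other tissues, was 0.347 FPKM in MycN (0.201 to 0.553) and 0.0279 to 0.0848 in the others. Its MycN interval overlapped that of vector (0.0177 to 0.251) and lay above those of Myc (up to 0.155) and Minimal Myc (up to 0.154). Ndufa4l2, a paralogue known for induction by low oxygen, was 0.443 FPKM in Myc (0.275 to 0.665) and 0.0741 to 0.113 in the others. Its Myc interval lay above those of vector, MycN and Minimal Myc (upper limits 0.238, 0.230 and 0.179). The 2 highest values rest on 17 and 22 estimated fragments. The testis forms Cox6b2, Cox7b2 and Cox8c and the muscle form Cox8b were at 0 to 0.185 FPKM, and at 4 fragments or fewer no difference between libraries was detectable. Where a library was listed at 0, 3 fragments would have been 0.0939 to 0.275 FPKM.

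**Figure D4:**
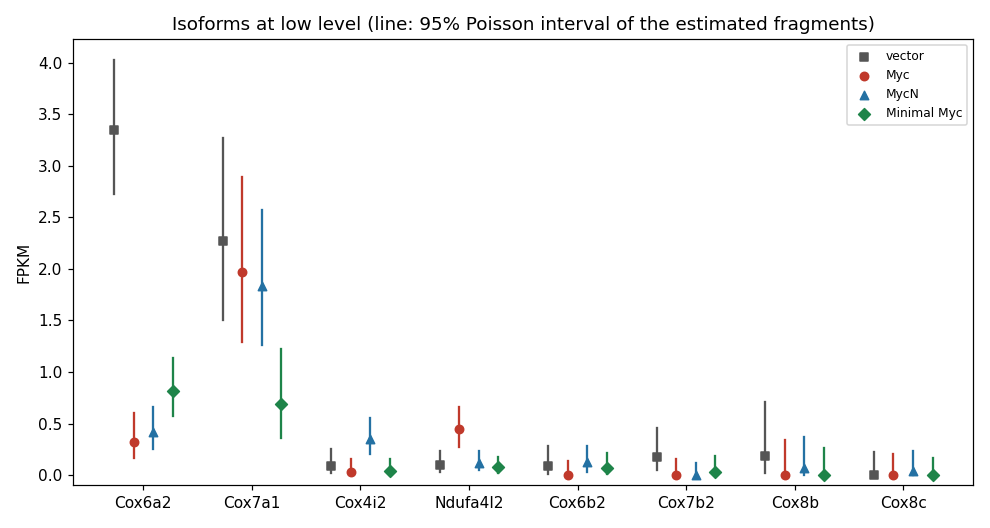
FPKM (linear axis) of the 8 complex IV isoforms at low level in the 4 libraries; vertical lines are 95% exact Poisson intervals of the estimated fragments and cover counting error only. Vector stands above the other libraries for Cox6a2 (3.35 FPKM), and Minimal Myc below them for Cox7a1 (0.687).

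Complex V had medians of 0.59, 0.38 and 0.57 over 16 genes. At least 2-fold higher were 1 gene in Myc (Atp5d), 0 in MycN and 0 in Minimal Myc, against 11.2%, 7.65% and 13.6% of all genes. With 16 genes these counts are too small to set apart from the background. Relative to all genes these are 0.11, -0.04 and 0.10, again with MycN close to the median gene. Among the F1 subunits, which hold the catalytic sites and the rotor shaft, Atp5a1 (alpha) was 272 FPKM with vector, 436 with Myc, 327 with MycN and 407 with Minimal Myc. Atp5b (beta), the highest gene of the chain in Myc, was 449 FPKM with vector, 831 with Myc, 597 with MycN and 646 with Minimal Myc. Atp5c1 (gamma) was 139 FPKM with vector, 179 with Myc, 162 with MycN and 220 with Minimal Myc. The alpha and beta subunits, which are present in equal copies in the enzyme, were both highest in Myc, and gamma was highest in Minimal Myc. By subunit group the medians were 0.68, 0.37 and 0.58 for F1, 0.62, 0.33 and 0.43 for the c-ring, and 0.58, 0.39 and 0.64 for the stalk and membrane subunits.

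The c-ring of the ATP synthase is built from 1 mature protein that 3 genes encode. Atp5g1 was 128 FPKM with vector, 197 with Myc, 160 with MycN and 163 with Minimal Myc. Atp5g2 was 338 FPKM with vector, 411 with Myc, 373 with MycN and 457 with Minimal Myc. Atp5g3 was 377 FPKM with vector, 630 with Myc, 532 with MycN and 687 with Minimal Myc. Vector was the lowest for all 3 (68.1% of all genes, 80.3% of the abundant ones), and Atp5g1 was the lowest of the 3 genes in every library. Atp5o, the stalk subunit that confers oligomycin sensitivity, had the highest mean difference of complex V (154, 260, 239 and 298 FPKM in vector, Myc, MycN and Minimal Myc). Atp5l, a membrane subunit, had the lowest and was 282 FPKM with vector, 323 with Myc, 274 with MycN and 439 with Minimal Myc. In MycN Atp5l was 0.971 times vector, the 1 gene of complex V below it in any library.

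The 3 Myc proteins were also compared with each other. MycN lay below Myc by a median of -0.20 over the 88 genes, against -0.06 for all genes and -0.24 for the abundant ones, and 24 of 88 genes were higher in MycN (43.6% of all genes). Of the 88 genes, 0 were at least 2-fold higher in MycN than in Myc (1.95% of all genes) and 1, Ndufs8, was 2-fold lower (2.74%). Minimal Myc and Myc differed by a median of 0.07 (all genes -0.03), with 1 gene at least 2-fold higher, Ndufa1 (4.48%), and 0 lower (2.16%). In the scaled table this median was -0.60, so its direction rests on the scaling. Minimal Myc lay above MycN by a median of 0.23 (all genes 0.05, abundant genes 0.23), with 68 of 88 genes higher (53.3% of all genes). Of these, 4 were at least 2-fold higher (Cox7b, Ndufa1, Ndufb4 and Uqcrq, against 6.94% of all genes) and 0 lower (3.69%). The 3 comparisons share libraries in pairs. Those 4 genes encode small subunits of complexes I, III and IV.

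Transcript length was set beside the differences, because the respiratory chain genes are short: their median transcript length was 849 bases against 2831 for all genes past the filter with a length. Over the 88 genes Spearman's rho between length and the difference from vector was 0.43 with Myc, 0.18 with MycN and 0.23 with Minimal Myc, and over 11366 genes it was -0.11, -0.01 and -0.15. Among these genes the longer ones thus tended to lie higher in Myc relative to vector, as a description over genes that share the same libraries. The part of transcript length in the difference between complexes was not tested.

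Genes that assemble or serve the chain were described from lists chosen by function. The 7 complex I assembly genes outside the symbol rule had medians of 0.55, 0.32 and 0.43 for Myc, MycN and Minimal Myc. In each, 0 were at least 2-fold higher, against 11.2%, 7.65% and 13.6% of all genes. Their highest by mean difference was Ecsit (8.40, 16.1, 11.1 and 17.5 FPKM in vector, Myc, MycN and Minimal Myc) and their lowest Lyrm2 (7.87, 9.48, 6.61 and 11 FPKM). The 3 complex II assembly genes had 0.40, 0.17 and 0.36, with 0 at 2-fold. With 7 and 3 genes, counts of 0 cannot be set apart from those shares of all genes. Sdhaf2, which attaches the flavin to Sdha, was their highest (11, 15.4, 15.2 and 15.1 FPKM) and Acn9 their lowest (7.69, 10.5, 7.94 and 8.94 FPKM). These lists lay below the medians of the complexes they serve.

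The 20 complex IV assembly genes past the filter had medians of 0.52, 0.25 and 0.72, and 2, 2 and 4 of them were at least 2-fold higher than vector, against 11.2%, 7.65% and 13.6% of all genes. Pet117 was the highest by mean difference (4.79, 12.6, 11.1 and 10.1 FPKM in vector, Myc, MycN and Minimal Myc) and Coa4 the lowest (4.56, 6.03, 4.49 and 5.70 FPKM). The 4 in Minimal Myc, named after their values were seen, were Cox16, Cox17, Cox18 and Coa5. Cox17, the copper chaperone of complex IV, was 77.3 FPKM with vector, 120 with Myc, 97.1 with MycN and 221 with Minimal Myc. Complex III assembly genes past the filter numbered 4, with medians of 0.69, 0.53 and 0.48. Bcs1l, which inserts the Rieske protein, was the highest (4.38, 7.56, 8.59 and 6.45 FPKM), and Ttc19 was the lowest by its mean although it was 2-fold higher in Minimal Myc. Its values were 5.32, 8.59, 4.52 and 13.3 FPKM. The 4 genes of complex V assembly and inhibition had 0.92, 0.62 and 0.66, with Tmem70 highest (12.7, 26.3, 25.5 and 29.5 FPKM) and Atpaf1 lowest (6.47, 5.26, 8.38 and 7.61 FPKM).

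The 19 genes of mitochondrial genome expression and nuclear regulation had medians of 0.75, 0.68 and 0.60. In Myc 2 were at least 2-fold higher and 1 lower (11.2% and 1.56% of all genes), in MycN 2 and 0 (7.65% and 1.86%), and in Minimal Myc 1 and 0 (13.6% and 1.68%). Mterfd2, of the mitochondrial transcription termination factor family, was the highest (2.79, 4.97, 9.78 and 5.96 FPKM in vector, Myc, MycN and Minimal Myc). Ppargc1a, a coactivator of mitochondrial biogenesis, was the lowest, at 2.96 FPKM with vector, 0.638 with Myc, 3.94 with MycN and 1 with Minimal Myc. Ppargc1a thus lay below vector in Myc and Minimal Myc and above it in MycN. The 18 genes of the tricarboxylic acid cycle and pyruvate dehydrogenase had medians of 0.76, 0.49 and 0.68, with 3, 1 and 4 at least 2-fold higher (11.2%, 7.65% and 13.6% of all genes) and vector lowest for all 18 (68.1% of all genes). Pdha1, a catalytic subunit of pyruvate dehydrogenase, was the highest (36.6, 114, 45.7 and 101 FPKM).

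The 7 carriers and porins past the filter, which move adenine nucleotides, phosphate and metabolites across the mitochondrial membranes, had medians of 0.75, 0.23 and 0.65. Slc25a5, an ADP/ATP carrier, was the highest by mean difference, at 135 FPKM with vector, 239 with Myc, 149 with MycN and 468 with Minimal Myc. Ucp2, an uncoupling protein homologue, was the lowest, at 14.8, 15.1, 20.8 and 11.4 FPKM. The carrier list lay below the median of all genes in MycN (0.42) and above it in the other 2 comparisons, and it had 0, 0 and 1 gene at least 2-fold higher, against 11.2%, 7.65% and 13.6% of all genes.

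**Figure D5:**
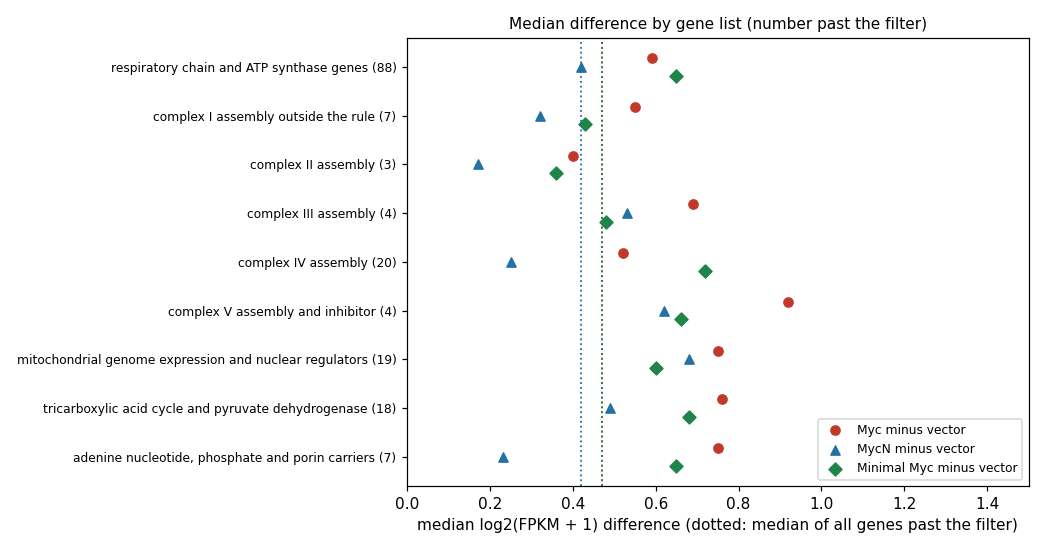
Median log2(FPKM + 1) difference from vector for the respiratory chain genes and 8 lists of related genes, with the number past the filter in brackets; markers are the 3 comparisons and dotted lines the median of all genes in each (0.47 for Myc and Minimal Myc, 0.42 for MycN). The MycN marker is the leftmost in 6 of the 8 lists.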

How the data were processed

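Polyadenylated RNA of 4 cultures was sequenced from strand-marked libraries, per the labels' protocols, after ERCC spike-ins had been added by cell number; the tables hold 0 ERCC rows. The authors deposited 2 tables of FPKM. TopHat2 2.0.11, Cufflinks 2.2.0 and build mm9 are named, with no roles, per the submitters' processing notes. Per the file headers 32 rows (30 genes) are a NanoString signal in the same columns; how it was normalized is not stated in the labels. In the other table each library's values equal the first multiplied by 1 factor (1.00, 2.04, 1.30 and 1.28 for vector, Myc, MycN and Minimal Myc).

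From the deposited FPKM, identical rows of a symbol were merged and others summed. The filter kept genes that averaged 1 FPKM or more and left out 310 symbols of small RNA (Mir, Snora, Snord, Scarna, Rnu). A difference is that of log2(FPKM + 1), which understates low genes, and a gene counted as 2-fold from 1 on that scale. The filter admits a gene through a single high library. No test, p-value or standard deviation is given for 1 library a group. Depth was estimated from low values, on the assumption that in FPKM they are whole multiples of 1 fragment for a given length. The values used were under 0.1 FPKM, from longer transcripts with few estimated fragments. Of these, 55.2% to 57.0% lay within 0.05 of a whole fragment, so the assumption held only in part. GENCODE vM21 lengths were matched for 22564 of 23623 rows (95.5%). Poisson intervals at 95% on these estimates cover counting error only. The depth method was run on simulated whole fragment counts at exact lengths. That setting is simpler than these libraries, so it does not check the depths given here. Many of these genes have processed copies, and whether counting used strand is not given, so single values carry that uncertainty. Promoters come from RefSeq (GRCm38.p6), not the build of the files, and give sequence only. Values are named for core subunits, isoforms, the highest and lowest gene of each complex and list, and genes departing by at least 1 from the median of all genes; others are marked. The values of 2 genes that this rule takes are not reported here. The members and lists were chosen with earlier results of these data known. Alternatives were the scaled table, centring on the median of all genes, a pseudocount of 0.1, no filter, and subunits only. Python 3.11.15, pandas 2.3.3, numpy 2.4.6 and scipy 1.17.1 were used.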

Additional observations from a re-analysis of the deposited data

How the results depend on the processing

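The scaling decided how many genes passed 2-fold. In the authors' scaled table, whose median over all genes is 1.42, 0.76 and 0.80 with Myc, MycN and Minimal Myc, 83, 20 and 46 respiratory chain genes were at least 2-fold above vector, with medians of 1.62, 0.79 and 1.01. There 26 genes were 2-fold lower in MycN than in Myc (median -0.84), and 0 were 2-fold higher and 13 lower in Minimal Myc than in Myc (median -0.60). Centred on the median of all genes, 2, 1 and 0 genes were 2-fold above vector and 2 below it in MycN and in Minimal Myc, with medians of 0.12, 0.00 and 0.18, and the complex IV median turned to -0.11 in Myc. With a pseudocount of 0.1 FPKM, 2 genes were 2-fold lower in Minimal Myc than in vector, 2 higher and 1 lower than in Myc, and 1 lower than in MycN. Among subunits alone 3 genes were 2-fold above vector in MycN. Without the filter, 0 of the 18 counts and medians over the whole set moved, but 1 of the 15 medians by complex did (complex IV in MycN, from 0.38 to 0.18). No paired analysis was possible because each group has 1 library. Leaving out a library was not possible for the same reason. Depth limits the isoforms under 1 FPKM, which rest on 22 fragments or fewer per library among the 6 genes below the filter.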
